A study of Mus musculus with 20 samples.

Results

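The 10 genes described here encode enzymes that make fatty acids and triglycerides and proteins that coat and empty lipid droplets. They were taken by name as Acly, Acaca, Fasn, Scd1, Scd2, Dgat1, Dgat2, Plin2, Plin3 and Pnpla2, all 10 were found among the 33119 genes of the count table, and all 10 were among the 21724 genes that passed the filter on low counts. Hippocampal RNA was sequenced from 20 mice aged 16 months, 5 per group. Mice S144 to S148 were females and S154 to S158 males of the hAPOE3 genotype, and S164 to S168 were females and S174 to S178 males of the hAPOE4 genotype, all on a C57BL/6 background and with no treatment given in the labels. All mice were homozygous targeted replacement animals, in which human APOE3 or human APOE4 stands in place of the mouse Apoe gene, and no wild-type mice were included. The comparisons ask how APOE genotype, sex and their interaction bear on lipid metabolism genes of the aged hippocampus, which is a bulk tissue of neurons, glia and vessels.

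Fatty acid synthesis starts in the cytosol, where ATP citrate lyase (Acly) cuts citrate to acetyl-CoA. Acetyl-CoA carboxylase alpha (Acaca) carboxylates it to malonyl-CoA, and fatty acid synthase (Fasn) builds palmitate from both. Stearoyl-CoA desaturases (Scd1, Scd2) then place a double bond in the chain. Diacylglycerol acyltransferases (Dgat1, Dgat2) join fatty acids to diacylglycerol, the triglyceride is stored in droplets coated by perilipins (Plin2, Plin3), and adipose triglyceride lipase (Pnpla2) takes the first fatty acid off again. In the brain much of the fatty acid synthesis serves myelin, which oligodendrocytes make, and droplets are known mainly from glia and from the cells that line the ventricles.

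In the GRCm38 annotation (GENCODE release M21) the 3 genes of fatty acid synthesis lie on chromosome 11: Acly at chr11:100476353-100528000, Acaca at chr11:84129672-84401651 and Fasn at chr11:120805846-120824547. The desaturase genes are neighbours on chromosome 19, with Scd2 at chr19:44293674-44306864 and Scd1 at chr19:44394455-44407879 on the opposite strand. Dgat1 lies at chr15:76502015-76511953, Dgat2 at chr7:99153658-99182719, Plin2 at chr4:86648386-86670060, Plin3 at chr17:56277476-56292873 and Pnpla2 at chr7:141455198-141460743. Acaca is overlapped on the opposite strand by the coding gene Gm11437, and whether the counting used strand is not given in the sources used here. Scd1 and Scd2 are similar in sequence, and how Salmon divided reads that match both was not checked.

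RefSeq promoter windows were at hand for 6 of the 10 genes, and the 250 bases before the start are printed for the 3 consecutive enzymes of synthesis and for Plin2, the genes whose values the results below turn on. They are given 5′ to 3′ along the gene, in GRCm38.p6, and capitals mark matches on either strand to CCAAT (the box bound by NF-Y), GGGCGG (a GC box), CACGTG (an E-box) or TCACNCCAC (a sterol regulatory element). The windows are chr11:100528001-100528250 on the minus strand for Acly, chr11:84195188-84195437 on the plus strand for Acaca, chr11:120824548-120824797 on the minus strand for Fasn and chr4:86670060-86670309 on the minus strand for Plin2.
Acly: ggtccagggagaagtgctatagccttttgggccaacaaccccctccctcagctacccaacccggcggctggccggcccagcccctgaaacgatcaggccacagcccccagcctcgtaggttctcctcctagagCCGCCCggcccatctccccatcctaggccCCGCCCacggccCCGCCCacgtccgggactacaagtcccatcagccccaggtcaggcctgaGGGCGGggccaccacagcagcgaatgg
Acaca: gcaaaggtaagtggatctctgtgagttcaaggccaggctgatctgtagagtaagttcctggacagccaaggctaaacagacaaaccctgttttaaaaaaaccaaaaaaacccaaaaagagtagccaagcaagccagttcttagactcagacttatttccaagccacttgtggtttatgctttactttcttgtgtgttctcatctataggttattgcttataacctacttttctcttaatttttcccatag
Fasn: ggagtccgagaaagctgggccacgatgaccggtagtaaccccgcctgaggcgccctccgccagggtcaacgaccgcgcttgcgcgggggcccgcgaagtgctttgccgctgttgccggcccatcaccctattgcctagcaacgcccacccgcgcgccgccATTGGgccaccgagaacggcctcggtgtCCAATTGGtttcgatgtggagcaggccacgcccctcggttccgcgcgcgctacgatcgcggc
Plin2: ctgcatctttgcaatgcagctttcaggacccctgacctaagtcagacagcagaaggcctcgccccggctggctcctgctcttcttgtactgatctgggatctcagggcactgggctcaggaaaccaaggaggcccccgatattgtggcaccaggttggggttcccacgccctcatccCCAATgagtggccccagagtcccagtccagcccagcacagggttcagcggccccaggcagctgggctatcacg
The Fasn window held 3 CCAAT matches between 90 and 55 bases before the start, 2 of them overlapping, and no GC box. The Acly window held 4 GC boxes between 117 and 22 bases before the start and no CCAAT. Plin2 had 1 CCAAT match, 73 to 69 bases before the start, and the Acaca window had none of the motifs. The Acaca window also differed in composition, with 39.2% G and C against 68.8% in Acly, 69.2% in Fasn, 61.6% in Plin2 and a median of 52.4% over all 32851 windows. It lies inside the annotated Acaca gene, which begins at 84129672 on the plus strand, and precedes 1 of several annotated starts. It therefore does not describe the others, and whether it acts as a promoter was not tested. Of the 6 genes with a window, 3 held CCAAT and 3 held GGGCGG, beside 33.8% and 32.7% of all windows, and none held CACGTG or TCACNCCAC, which were in 6.02% and 1.05% of all windows. These matches are a description of letters and not of bound sites.

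Each mouse gave between 35778879 and 52520279 estimated counts. Xist and Ddx3y matched the labelled sex in 20 of 20 mice. Neuron markers summed to 4901 to 7466 CPM (estimated counts scaled to a common library size) over the mice and oligodendrocyte markers to 4518 to 13969 CPM. Choroid plexus markers ran from 78.6 to 6542 CPM within the same labelled tissue. Fat cell markers summed to at most 2.20 CPM, and Adipoq, the defining adipokine, had at most 3 counts in a mouse and 0 in 12 mice. Mice S158 and S176 had oligodendrocyte marker scores (mean log2 CPM, centred per gene) of 0.91 and 0.66, and the other 18 were at or below 0.24. In 5 hAPOE3 mice (S147, S148, S156, S157 and S158) a score of nuclear oxidative phosphorylation genes lay between 0.27 and 0.42, and in the other 15 it was at or below 0.05. The genotype differences of the 10 genes over both sexes are given with and without these 5 mice. Without them the hAPOE3 mice left were the males S154 and S155 and the females S144, S145 and S146. All hAPOE4 mice stayed in.

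Levels between genes were compared as CPM per kilobase of the longest coding transcript, over all 20 mice. The same length was used in every mouse, and the order with other lengths was not tested. Scd2 was by far the highest at 245 ± 36.6 (SD, n = 20), 6.13 times Scd1 at 39.9 ± 10.9, and it was above Scd1 in 20 of 20 mice. Acly (32.4 ± 3.51), Fasn (29.1 ± 6.69) and Dgat2 (26.6 ± 3.76) came next and overlapped: Acly was above Fasn in 14 mice and Fasn above Dgat2 in 13. Dgat2 exceeded its partner acyltransferase Dgat1 (10.3 ± 1.92) in all 20 mice. Dgat1 and Acaca (9.79 ± 1.6) could not be ordered, with Dgat1 above in 8 mice. Pnpla2 (7.43 ± 1.6) and Plin3 (5.79 ± 1.32) followed, and Plin2 was lowest at 2.83 ± 0.64, below Plin3 in every mouse.

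None of the 10 genes passed an adjusted p of 0.05 in any comparison (edgeR's quasi-likelihood test, Benjamini-Hochberg over 21724 genes). Fasn and Acaca were higher in hAPOE4 mice by 0.31 and 0.24 on the log2 scale over both sexes, Scd1 and Pnpla2 were lower in females by 0.30 and 0.28 over both genotypes, and these 4 differences had unadjusted p-values under 0.05 only. Plin2 differed most between genotypes in females, at 0.40. Of all genes tested, adjusted p was under 0.05 in 0.621% between genotypes in males, 0.667% in females and 2.45% over both sexes, in 0.0414% between females and males with hAPOE3, 0.437% with hAPOE4 and 0.129% over both genotypes, and in 0.184% for the interaction. At an unadjusted p under 0.05 the members numbered 0 between genotypes in males, 0 in females and 2 over both sexes, against 9.06%, 10.1% and 17.9% of all genes. Between the sexes they numbered 1 in hAPOE3 mice, 0 in hAPOE4 mice and 2 over both genotypes, against 5.22%, 5.8% and 10%, and 0 for the interaction against 2.54%. The 5 mice of one group did not lie wholly above or below the 5 of the other for any member, which was so for 1.44% of genes between genotypes in males, 3.27% in females, and 0.723% of genes between the sexes of either genotype. With DESeq2 the members called were also 0 in each comparison, and those at an unadjusted p under 0.05 were 1 between genotypes in females (Plin2), 2 over both sexes, 1 between the sexes in hAPOE3 mice, 2 over both genotypes and 0 in the other 3 comparisons. In edgeR's fit to the counts the 95% intervals lay within a 2-fold difference for all 10 genes in each comparison other than the interaction. There Plin2 reached an upper bound of 2.002-fold. Intervals under the alternatives are not given here. In bulk tissue, fewer cells of a type and less RNA per cell cannot be told apart.

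**Figure D1:**
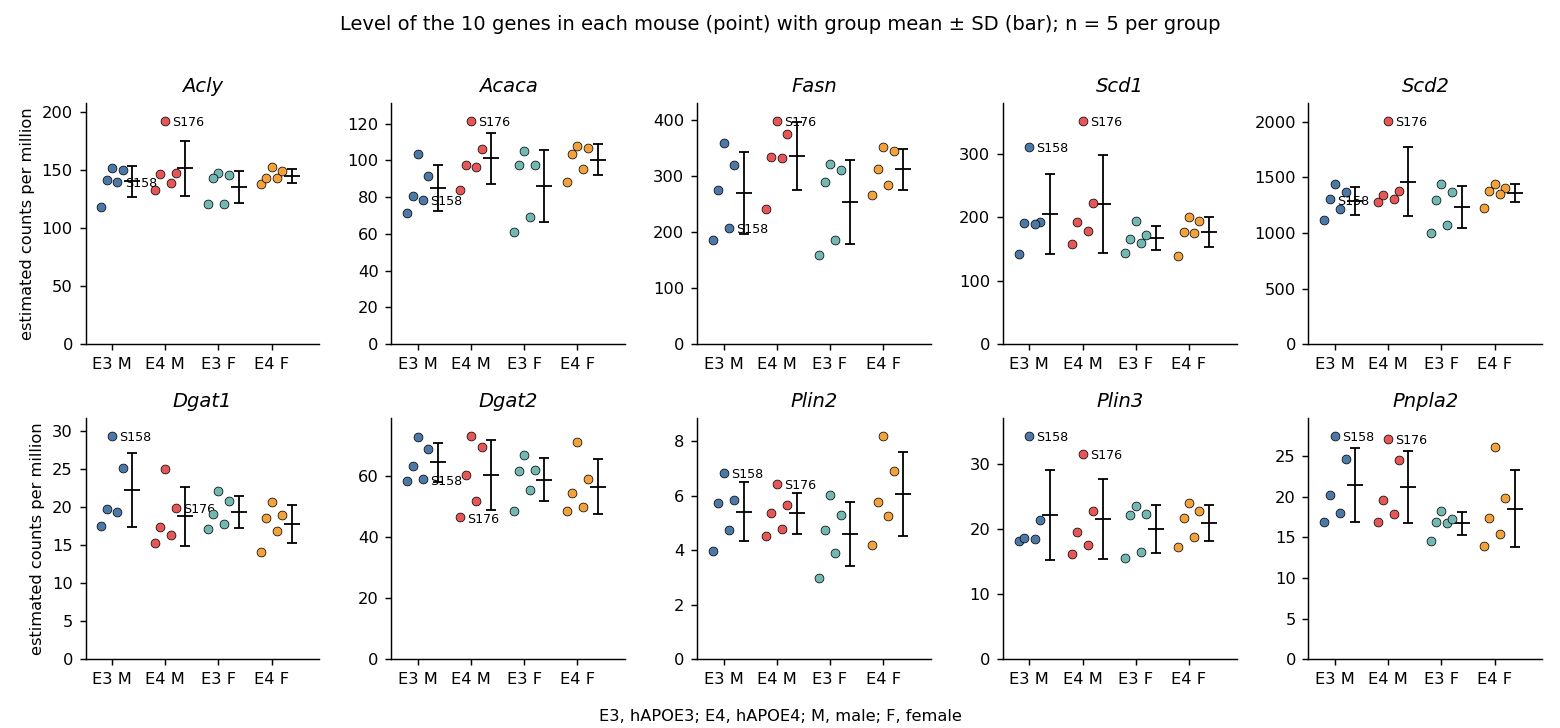
CPM (vertical axes, from 0) of the 10 genes in each of the 20 mice, with one point per mouse and bars for the group mean and SD (n = 5 per group; E3 and E4 for hAPOE3 and hAPOE4, M and F for males and females). The groups overlap for every gene, S176 is the highest mouse for the first 5 genes, and S158 is the highest for Dgat1, Plin3 and Pnpla2.

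Acly, the first enzyme, varied least of the 10 between mice of a group (SD 0.15 on the log2 scale). It averaged 140.4 ± 13.5 CPM in male and 136 ± 13.8 in female hAPOE3 mice, and 152 ± 23.6 in male and 145.2 ± 5.86 in female hAPOE4 mice (SD, n = 5). The genotype difference over both sexes was 0.10 (SE 0.07, adjusted p 0.451). S176 stood alone at 193 CPM, and the other 19 mice lay between 118 and 153. The difference was 0.05 without S176 and 0.02 without the 5 mice with high oxidative phosphorylation scores.

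Acaca makes the malonyl-CoA that commits carbon to fatty acids. It read 91.5, 104, 80.7, 71.1 and 78.4 CPM in the hAPOE3 males S154 to S158 and 106, 96.3, 122, 97.6 and 83.9 in the hAPOE4 males S174 to S178. In females it read 97.5, 97.5, 105, 69.2 and 60.9 in hAPOE3 (S144 to S148) and 108, 103, 88.1, 107 and 95.4 in hAPOE4 (S164 to S168). The lowest 5 of the 20 mice were S148, S147, S157, S158 and S156, the hAPOE3 mice with high oxidative phosphorylation scores, and the other 5 hAPOE3 mice lay among the hAPOE4 mice. Acaca was higher in hAPOE4 by 0.25 in males (95% interval -0.04 to 0.54), 0.22 in females (-0.07 to 0.51) and 0.24 over both sexes (0.03 to 0.44, unadjusted p 0.0263, adjusted p 0.211). Without the 5 mice that stood apart the difference over both sexes was 0.02 (adjusted p 0.909), and with limma on log2(normalized count + 1) it was 0.38 in all 20 mice (adjusted p 0.202).

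Fasn builds the palmitate chain, and its CPM spread was wider, 2.52-fold between the lowest and highest mouse. It read 319, 359, 276, 186 and 207 CPM in hAPOE3 males and 375, 332, 399, 335 and 241 in hAPOE4 males. In females it read 289, 311, 322, 186 and 159 in hAPOE3 and 352, 284, 267, 344 and 313 in hAPOE4. As for Acaca, S148, S157, S147 and S158 were the lowest 4. The difference was 0.32 in males (-0.10 to 0.74), 0.30 in females (-0.12 to 0.72) and 0.31 over both sexes (0.01 to 0.61, unadjusted p 0.0404, adjusted p 0.255), and 0.00 without the 5 mice (adjusted p 0.998).

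The Fasn difference had the opposite sign in the authors' normalized counts. Each of those counts is the estimated count over a factor that is specific to the gene and the mouse. Expressed relative to the median gene of the mouse, the Fasn factor ran from 0.522 in S158 to 1.35 in S167, a 2.59-fold range that was wider than for 96.9% of 21150 genes (median gene 1.12-fold). It was 0.536 in S147, 0.585 in S148, 0.605 in S157, 0.735 in S178 and 0.829 in S156, and between 0.988 and 1.35 in the other 14 mice. Division by it moved S158, S147 and S156 from below the median to the highest 3, at 16730, 14757 and 14590 normalized counts. The group means were then 13575 in male and 11974 in female hAPOE3 mice, and 12654 in male and 11269 in female hAPOE4 mice. With these factors as offsets the genotype difference over both sexes was -0.09 (adjusted p 0.614), and limma on log2(normalized count + 1) gave -0.09 (adjusted p 0.628). Fasn has 6 annotated transcripts of 636 to 10050 bases, and how the factors were made was not retraced. The factors of Scd1, Scd2 and Plin3 differed between mice by at most 1.01-fold, those of Dgat2 by 1.04-fold, and those of Pnpla2, Acly, Dgat1, Acaca and Plin2 by 1.182 to 1.51-fold.

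**Figure D2:**
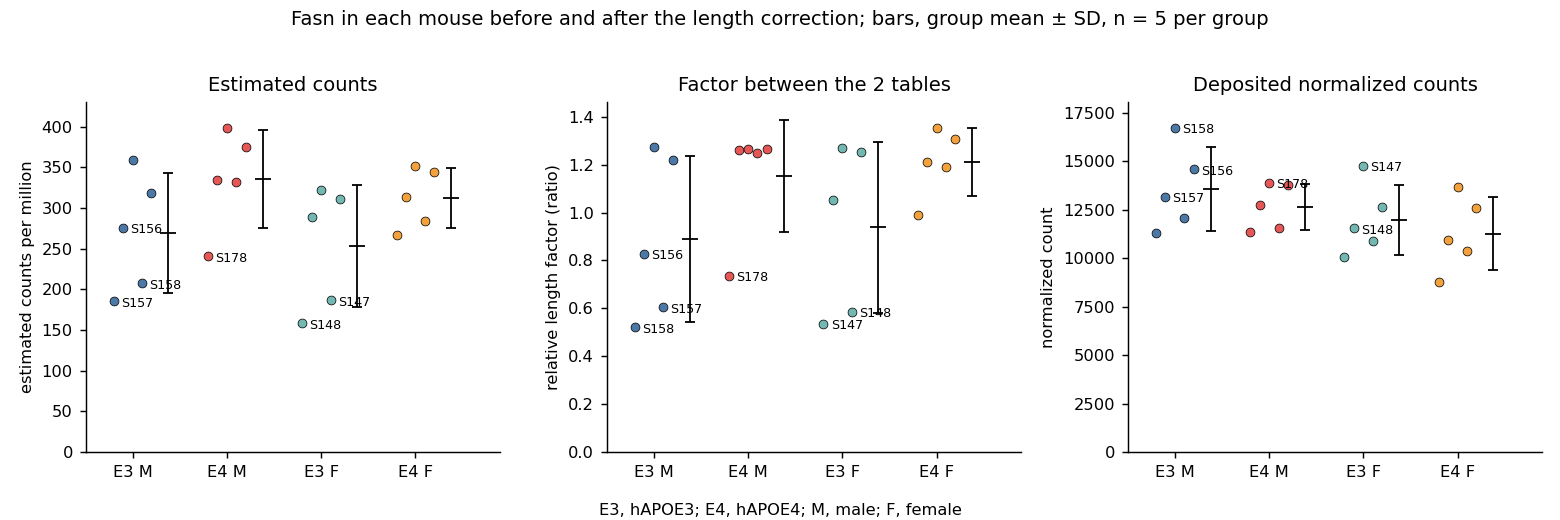
Fasn in each mouse (points) with group mean and SD (bars, n = 5 per group; E3 and E4 for hAPOE3 and hAPOE4, M and F for males and females), as CPM, as the factor between the count tables relative to the mouse's median gene, and as deposited normalized counts, on axes from 0. S158, S147 and S157 lie low in the first and second panels, and S158 and S147 are the highest 2 mice in the third.

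Scd1 is the desaturase best known from liver and fat, and here it spanned 2.52-fold between the lowest and highest mouse. It read 192, 189, 142, 191 and 311 CPM in hAPOE3 males and 157.3, 179, 352, 193 and 223 in hAPOE4 males. In females it read 195, 172, 166.3, 143.7 and 159.8 in hAPOE3 and 195, 177.7, 200.2, 176.2 and 139.7 in hAPOE4. All 10 females lay at or under 200.2 CPM, as did 7 of the 10 males, and the 3 males above them were S176, S158 and S178. Females were lower by 0.29 in hAPOE3 (-0.70 to 0.12), by 0.32 in hAPOE4 (-0.73 to 0.09) and by 0.30 over both genotypes (-0.59 to -0.01, unadjusted p 0.0403, adjusted p 0.473). S176 and S158 are the mice with the high oligodendrocyte scores: the sex difference over both genotypes was -0.09 without them and -0.05 with the oligodendrocyte score as a covariate. With the choroid plexus score as a covariate it was -0.48 (unadjusted p 0.000349, adjusted p 0.0564). Without the 5 mice with high oxidative phosphorylation scores it was -0.19. The genotype difference over both sexes was 0.10 (-0.19 to 0.39) and 0.10 without those 5 mice, but -0.02 without S176 and 0.20 without S158.

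Scd2, the desaturase form that prevails in brain, averaged 1288 ± 123 CPM in male and 1234 ± 190 in female hAPOE3 mice, and 1461 ± 307 in male and 1358 ± 82.1 in female hAPOE4 mice. S176 was highest at 2007 CPM and the others lay between 997 and 1442. The genotype difference over both sexes was 0.16 (-0.03 to 0.35, adjusted p 0.363) and the sex difference -0.08 (-0.27 to 0.11, adjusted p 0.79). Without S176 the genotype difference was 0.09 and the sex difference -0.01, and without the 5 mice that stood apart the genotype difference was 0.02. The log2 ratio of Scd1 to Scd2 was -2.69 ± 0.40 in male and -2.87 ± 0.10 in female hAPOE3 mice, and -2.76 ± 0.22 in male and -2.94 ± 0.12 in female hAPOE4 mice, and was highest in S158.

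Dgat1 and Dgat2 catalyse the same last step of triglyceride synthesis, and both had lower means in hAPOE4 mice of either sex. Dgat1 averaged 22.2 ± 4.89 CPM in male and 19.3 ± 2.06 in female hAPOE3 mice, and 18.7 ± 3.87 in male and 17.8 ± 2.47 in female hAPOE4 mice. Its genotype difference was -0.24 in males (-0.56 to 0.07, adjusted p 0.609), -0.12 in females (-0.43 to 0.19) and -0.18 over both sexes (-0.40 to 0.04). The hAPOE3 males S158 (29.3 CPM) and S157 (25.0) were the highest 2 of the 20 mice. Without the 5 mice that stood apart the Dgat1 difference was 0.01 in males and 0.00 over both sexes. S154 and S155 were then the only hAPOE3 males. Dgat2 averaged 64.5 ± 6.35 CPM in male and 58.9 ± 7.004 in female hAPOE3 mice, and 60.4 ± 11.4 in male and 56.6 ± 9.08 in female hAPOE4 mice. Its genotype difference over both sexes was -0.08 (-0.26 to 0.11), -0.05 without the same 5 mice and -0.04 without S176. It was lowest in S176 (46.5 CPM), the mouse that was highest for the 5 genes of synthesis and desaturation.

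Plin2 coats droplets and is degraded when it has none to bind, so its protein is a common droplet marker. Its RNA read 3.96, 4.74, 5.72, 5.83 and 6.83 CPM in hAPOE3 males and 4.52, 5.36, 6.44, 4.77 and 5.65 in hAPOE4 males. In females it read 6.01, 2.99, 3.88, 4.73 and 5.29 in hAPOE3 and 5.77, 6.90, 8.21, 5.25 and 4.18 in hAPOE4. The highest 2 mice of all were the hAPOE4 females S166 and S165, and the hAPOE3 females S145 and S146 were the lowest 2. The difference was 0.40 in females (-0.01 to 0.81, unadjusted p 0.0535, adjusted p 0.504) and -0.02 in males (-0.43 to 0.39), and the interaction of 0.42 did not pass (-0.16 to 1.00, adjusted p 1.00). Over both sexes the difference was 0.19 (-0.10 to 0.48, adjusted p 0.493), 0.13 without S166 and 0.39 without the 5 hAPOE3 mice that stood apart (adjusted p 0.311). With the factors between the deposited tables as offsets it was 0.44 (adjusted p 0.125), and the difference in females was 0.65 (unadjusted p 0.00583, adjusted p 0.219).

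Choroid plexus markers were highest in the mice with the most Plin2, S166 and S165, but did not follow Plin2 in every mouse. In S164, S165 and S166 the choroid plexus score was 2.22, 2.76 and 2.84, the highest 3 of the 20 mice, and in S146 and S168, with 3.88 and 4.18 CPM of Plin2, it was -2.26 and -2.15. S145, with the lowest Plin2, had a score of 0.67, and the hAPOE3 male S156, with 5.72 CPM of Plin2, had -1.99. Choroid plexus markers summed to 78.6 to 3902 CPM in hAPOE3 females and 102 to 6542 CPM in hAPOE4 females, over 10 of 10 listed markers. With this score as a covariate the Plin2 difference in females was 0.33 (unadjusted p 0.0286, adjusted p 0.366). The covariate was added after seeing the data, and the part of choroid plexus tissue in the Plin2 level was not tested.

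Plin3, the perilipin of small and new droplets, averaged 22.1 ± 6.92 CPM in male and 19.97 ± 3.72 in female hAPOE3 mice, and 21.5 ± 6.12 in male and 20.9 ± 2.80 in female hAPOE4 mice. S158 (34.3 CPM) and S176 (31.5) stood above the other 18 mice, which lay between 15.4 and 24.02. Its genotype difference was 0.01 over both sexes (-0.27 to 0.29), 0.20 without the 5 mice that stood apart, 0.12 without S158 and -0.08 without S176. Its sex difference was -0.10 (-0.38 to 0.19) and became 0.10 without S158 and S176. It was 0.14 with the oligodendrocyte score as a covariate and -0.30 with the choroid plexus score (edgeR, unadjusted p 0.0105, adjusted p 0.154).

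Pnpla2, the lipase that opens triglyceride breakdown, read 16.9, 20.3, 24.7, 17.98 and 27.6 CPM in hAPOE3 males and 16.9, 17.9, 27.2, 24.6 and 19.7 in hAPOE4 males. In females it read 16.7, 17.0, 17.3, 18.3 and 14.5 in hAPOE3 and 26.2, 15.4, 14.0, 17.4 and 19.8 in hAPOE4. The hAPOE3 females were a tight group (SD 1.39 CPM), and 3 of the hAPOE3 males were above all of them. Females were lower by 0.36 in hAPOE3 (-0.71 to -0.01, unadjusted p 0.0456, adjusted p 0.805), by 0.19 in hAPOE4 (-0.55 to 0.16) and by 0.28 over both genotypes (-0.53 to -0.03, unadjusted p 0.0308, adjusted p 0.440). Without the 5 mice that stood apart the difference was -0.12 in hAPOE3, where S154 and S155 were the males left, and -0.15 over both genotypes. Without S158 and S176 it was -0.17 over both genotypes (unadjusted p 0.148). With the choroid plexus score as a covariate it was -0.31 over both genotypes (edgeR, unadjusted p 0.0264, adjusted p 0.208). The genotype difference was 0.07 over both sexes (-0.18 to 0.31), 0.16 without the 5 mice and -0.01 without S164.

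**Figure D3:**
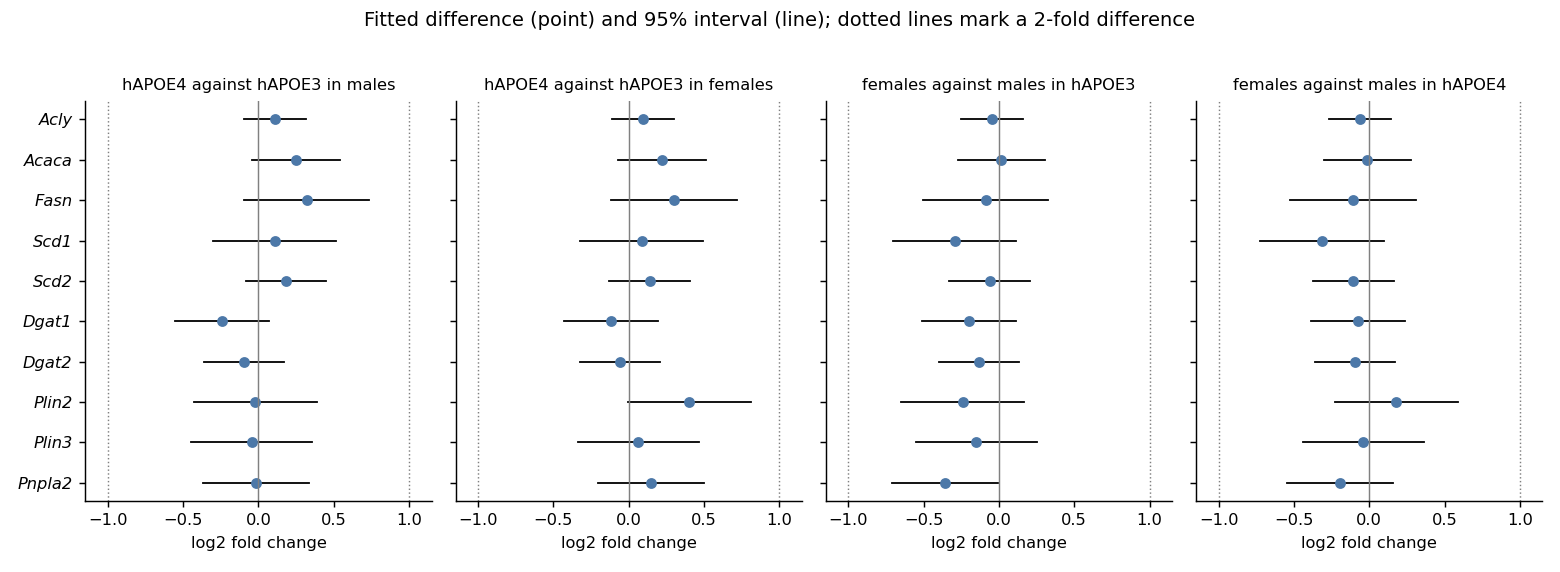
Log2 fold change (horizontal axes) of the 10 genes in the 4 comparisons of 2 groups of 5 mice, as points with 95% intervals from edgeR's quasi-likelihood fit, with dotted lines at a 2-fold difference. Each interval lies between the dotted lines and includes 0 but for that of Pnpla2 between the hAPOE3 sexes, which ends at -0.01.

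Counted as a list over both sexes, 8 of 10 were higher in hAPOE4 with a median difference of 0.10, beside a median of 0.00 and 50.3% higher over all genes tested. Without the 5 hAPOE3 mice that stood apart, 5 of the 10 differences were between 0.00 and 0.02 (Acly, Acaca, Fasn, Scd2 and Dgat1). The others were 0.10 for Scd1, 0.39 for Plin2, 0.20 for Plin3 and 0.16 for Pnpla2, and Dgat2 alone was lower in hAPOE4 (-0.05). By sex the medians were 0.04 in males (5 of 10 higher) and 0.12 in females (8 of 10 higher). Females were lower than males for 9 of 10 genes in hAPOE3 (median -0.14), 9 of 10 in hAPOE4 (median -0.09) and 9 of 10 over both genotypes (median -0.10), beside medians of 0.00, -0.01 and 0.00 over all genes. Of all genes tested 50.5%, 47.3% and 48.8% were higher in females. Over both genotypes Plin2 and Plin3 were at 0.10 and 0.00 without the 5 mice that stood apart, and at 0.06 and 0.10 without S158 and S176. The comparisons share mice, and the members vary together, so these counts are descriptions. Single mice held much of the spread: S176 was the highest mouse for 5 of the 10 genes and S158 for 3, and S147 and S148 were each among the lowest 3 for 5 genes.

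How the genes varied together was computed among the 15 mice outside the oxidative phosphorylation cluster, after subtracting group means (log2 CPM, permutation within groups, 45 pairs). The other 5 mice were too few for a value. At an adjusted p under 0.05 for Pearson's r, 7 pairs passed. Scd1 and Scd2 moved together, with r = 0.93 (permutation p 0.00078, adjusted p 0.0164) and Spearman's rho = 0.85 (permutation p 0.00107, adjusted p 0.0284), and r = 0.84 without S174 and S176. Scd1 moved with Plin3 at r = 0.87 (permutation p 0.00161, adjusted p 0.0181) and rho = 0.85 (permutation p 0.00189, adjusted p 0.0284), and r = 0.70 without the same 2 mice. Fasn and Acaca had r = 0.89 (permutation p 0.00081, adjusted p 0.0164) and rho = 0.87 (permutation p 0.00143, adjusted p 0.0284), and r = 0.79 without S176 and S178. In the deposited normalized counts, however, r between Fasn and Acaca was 0.14, while that of Scd1 with Scd2 stayed at 0.93 and that of Scd1 with Plin3 at 0.87. The other 4 pairs were Scd1 with Plin2 (r = 0.60), Acly with Plin2 (r = 0.45), Plin2 with Plin3 (r = 0.69) and, in opposite directions, Scd1 with Dgat2 (r = -0.74), and of these only Scd1 with Plin2 also passed by rho. The pairs that passed are not those with the largest r. Acly with Scd2 had r = 0.84 and did not pass (permutation p 0.0887, adjusted p 0.2495), with r = 0.51 without S176 and S177.

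Marker scores of 6 cell types were set beside the genes in the same 15 mice, which makes 60 pairs. By Pearson's r 10 pairs passed at an adjusted p under 0.05. Scd1 moved with the oligodendrocyte score at r = 0.81 (permutation p 0.00221, adjusted p 0.0257) and rho = 0.77 (permutation p 0.0011, adjusted p 0.022), and r was 0.46 without S174 and S176. It moved against the neuron score at r = -0.80 (permutation p 0.003, adjusted p 0.0257) and rho = -0.84 (permutation p 0.00373, adjusted p 0.028), and r was -0.66 without the same mice. Scd2 moved with the oligodendrocyte score at r = 0.85 (permutation p 0.00689, adjusted p 0.0413) and with the astrocyte score at r = 0.80 (permutation p 0.00456, adjusted p 0.0304), which were 0.60 and 0.55 without S175 and S176. The rho of both were 0.73 and 0.69 (permutation p 0.0052 and 0.00913, adjusted p 0.0347 and 0.0486). Plin3 moved against the neuron score at r = -0.85 (permutation p 0.00095, adjusted p 0.0214) and rho = -0.86 (permutation p 0.00103, adjusted p 0.022), with r = -0.81 without S144 and S176. Plin2 did so at r = -0.65 (permutation p 0.00107, adjusted p 0.0214) and rho = -0.73 (permutation p 0.00286, adjusted p 0.028), with r = -0.67 without S144 and S166. Acly, Scd1, Scd2 and Plin3 also passed with the choroid plexus score (r from 0.61 to 0.78, permutation p 0.0003 to 0.00342, adjusted p 0.018 to 0.0257), with r from 0.57 to 0.84 without their 2 farthest mice. Plin2 passed with it by rho = 0.77 (permutation p 0.00972, adjusted p 0.0486) and not by r = 0.74 (permutation p 0.0149, adjusted p 0.0746), as did Scd1 with the endothelium score (rho = 0.76, permutation p 0.00723, adjusted p 0.0434) and Plin3 with the oligodendrocyte score (rho = 0.65, permutation p 0.0108, adjusted p 0.04998). The part of these cell types in the levels was not tested. Fasn, Acaca, Dgat1, Dgat2 and Pnpla2 passed with none of the 6 scores.

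**Figure D4:**
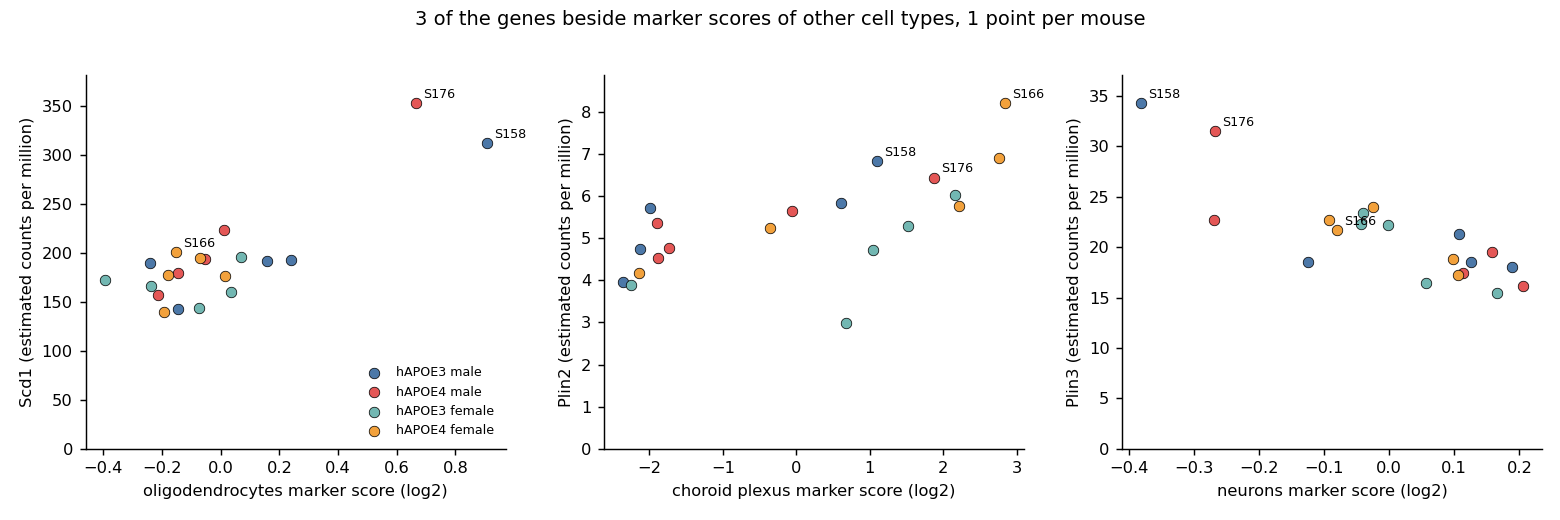
CPM of Scd1, Plin2 and Plin3 (vertical axes, from 0) against the oligodendrocyte, choroid plexus and neuron marker scores (horizontal axes, mean centred log2 CPM), with 1 point per mouse and colours for the 4 groups. S158 and S176 lie apart at the upper right for Scd1 and the upper left for Plin3, and S166 has both the highest Plin2 and the highest choroid plexus score.

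Among 14316 other genes with a mean log2 CPM above 1, the gene most like each member was found by Pearson's r over 20 mice. The r over the 15 mice is given here, without subtracting group means. Each partner was picked as the highest r over mice that include these 15, so high values follow from the choice. In the 15 mice another gene could be closer, as for Scd2 and Acly. Library depth and tissue composition differed between the mice, and their part in these r was not tested. They were 0.88 for Fasn with Map1a, 0.87 for Acaca with Shc3, 0.86 for Acly with Fchsd2, 0.94 for Scd1 with Rassf2, 0.86 for Scd2 with Fam184a and 0.91 for Plin2 with Scpep1. They were 0.93 for Plin3 with Plpp2, 0.90 for Dgat1 with Mvb12a, 0.87 for Dgat2 with Prr7 and 0.79 for Pnpla2 with Proser2. Fitm2, which encodes a protein of droplet formation, was the third closest to Acly (r = 0.86).

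The wider pathway was read from 5 lists of 99 genes, of which 94 were tested, and none passed an adjusted p of 0.05 in any of the 7 comparisons. At an unadjusted p under 0.05 there were 4 between genotypes in males, 8 in females and 14 over both sexes, that is 4.26%, 8.51% and 14.9% of the 94 beside the 9.06%, 10.1% and 17.9% of all genes. Between the sexes there were 5 in hAPOE3 mice, 4 in hAPOE4 mice and 9 over both genotypes, that is 5.32%, 4.26% and 9.57% beside 5.22%, 5.8% and 10% of all genes, and 1 for the interaction, 1.06% beside 2.54%. The median differences of the 94 between genotypes were 0.03 in males, 0.07 in females and 0.04 over both sexes.

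Among partners of fatty acid synthesis over both sexes, Acacb, the mitochondrial carboxylase isoform, differed by 0.41 (adjusted p 0.235), the elongase Elovl6 by 0.11, and the polyunsaturated desaturases Fads1 and Fads2 by 0.04 and 0.33 (adjusted p 0.166 for Fads2). Of the regulators, Srebf1, which drives the lipogenic enzymes, differed by 0.23 (adjusted p 0.222) and Insig1, its sterol-sensing brake, by -0.10. In the triglyceride branch Gpam, which adds the first acyl chain to glycerol 3-phosphate, differed by 0.44 (adjusted p 0.244) and Lpin1 by 0.12. Of the other perilipins Plin4 differed by 0.60 (adjusted p 0.318), Plin5 by 0.19 and Plin1, at 0.56 CPM on average, by -0.49, while Hilpda, an inhibitor of Pnpla2, differed by -0.01. Of the lipolysis genes Abhd5, the coactivator of Pnpla2, differed by -0.11, Lipe by 0.18 and Mgll by -0.16. Fat cell markers were near 0 in all groups, as given above.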

How the data were processed

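Paired-end reads of polyA-selected RNA were quantified by the authors with Salmon 0.91 against Ensembl 95 mouse transcripts. Tximport then gave the deposited estimated counts per gene, which are whole numbers. A further table from the authors' DESeq2 run holds those counts after division by factors specific to gene and mouse, as a normalized signal. Counts per mouse ran from 35778879 to 52520279, and all 190 pairs of libraries differed by more than sampling noise. Counts were tested here with edgeR 4.0.16 in R 4.3.3 (TMM, filterByExpr, glmQLFit on 1 mean per group, glmQLFTest over 21724 genes, Benjamini-Hochberg). CPM are TMM-normalized, with a prior count of 2 on the log2 scale. DESeq2 1.42.0 and limma 3.58.1 (normalized counts, pseudocount 1 or 0.5), another size factor, no filter, offsets from the deposited normalized counts, marker covariates and each mouse left out were alternatives. The choroid plexus covariate and the leaving out of 5 or 2 mice were added after seeing the data. Permutations (100000 resamples, within groups, two-sided) used numpy 2.4.6. Gene positions are those of GENCODE M21 on the authors' build, GRCm38, and promoters those of RefSeq. The 10 genes, the pathway and marker lists and the tests were chosen with earlier results of these data known. Pathway genes were named by a rule: 15 set names, those with an adjusted p under 0.05 (up to 12), and the most similar gene per member. Pparg, Hacd1, Lipa, Mbtps1, Fitm2, Hacd4 and Nr1h2 were named after their values were seen. Scripts were tested on simulated counts.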

Additional observations from a re-analysis of the deposited data

Results flagged for a closer look

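Chance flags about 1 in 20 groups of 5, and 40 groups (10 genes in 4 groups) were examined for a mouse far from the rest on the log2 scale. In the hAPOE4 males Acly was 193 CPM in S176 and at most 147.3 in the other 4, a gap of 0.726 of the group's range. Scd2 was 2007 CPM in the same mouse and at most 1375 in the other 4, a gap of 0.838 of the range. In the hAPOE3 males Plin3 was 34.3 CPM in S158 and at most 21.3 in the other 4, a gap of 0.741 of the range. S158 and S176 also had the highest oligodendrocyte marker scores, 0.91 and 0.66, and their part in these 3 values was not tested. Without both mice no member passed in any comparison either.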

How the results depend on the processing

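No member passed an adjusted p of 0.05 under any of the 33 alternatives for a comparison of 2 groups or the 32 for the others. With the choroid plexus score as a covariate the sex difference over both genotypes moved from -0.03 to -0.27 for Plin2 (edgeR, adjusted p 0.198). It moved from -0.14 to -0.24 for Dgat1 (adjusted p 0.221) and from -0.10 to 0.03 for Fasn. The Fasn difference between genotypes over both sexes, 0.31 in the counts, had the opposite sign with the factors between the deposited tables as offsets (-0.0943) and with limma on log2(normalized count + 1) (-0.0919007) or log2(normalized count + 0.5) (-0.0919045). The limma alternatives also change the model and the pseudocount. Pathway list genes called between genotypes over both sexes numbered 0 in the main test, 3 with DESeq2 (Pparg at -0.65, Hacd1 at -0.30 and Mbtps1 at 0.15), 2 with the oligodendrocyte score (Pparg and Lipa), 1 with the nuclear oxidative phosphorylation score (Gpam at 0.30), 1 with the choroid plexus score (Lipa at 0.21) and 0 to 1 when each mouse was left out (Hacd1 without S146, Pparg without S158). In females 1 was called with the nuclear oxidative phosphorylation score (Gpam at 0.48), and in males 0 to 1 when each mouse was left out (Pparg without S158). The cause of these changes was not tested. Leaving out 1 mouse turned no difference of a member with an unadjusted p under 0.05. No paired analysis was possible because the mice carry no numbers shared between groups. Plin2 had the lowest CPM of the 10 genes, 2.99 to 8.21.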

Other observations

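Of the pathway genes that are not members, those nearest the threshold between genotypes over both sexes were Pparg, a nuclear receptor that drives lipid storage, at -0.65 (edgeR's quasi-likelihood test, adjusted p 0.0634), Hacd1, a dehydratase of very long chain fatty acid elongation, at -0.31 (adjusted p 0.0911), and Lipa, the lysosomal acid lipase, at 0.25 (adjusted p 0.111). Pparg averaged 1.83 CPM and differed by -0.92 in males (95% interval -1.47 to -0.37, adjusted p 0.182) and by -0.38 in females (-0.93 to 0.16, adjusted p 0.684), and whether these differ was tested only as the interaction, in which no pathway gene passed. Between the sexes over both genotypes the nearest was Hacd4, of the same dehydratase family as Hacd1, at 0.47 in females against males (adjusted p 0.258), followed by the liver X receptor gene Nr1h2 at -0.25 (adjusted p 0.286).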
